A study of Homo sapiens with 6 samples.

Results

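The 40 genes described here encode proteins of the centromere, the kinetochore and the spindle checkpoint. They were chosen by gene symbol from a fixed list, and all 40 were found in a table of 58825 genes. The series asks what DLGAP5 does in bladder cancer: RNA was sequenced from T24, an established human bladder cancer line, with a hairpin against DLGAP5 (shDLGAP5-1) or a control hairpin (shNC-1), in 3 libraries each. The labels give the genotype as shDLGAP5-1 for the first group and WT for the second, and both were grown in the same medium with serum. Each group was 1 hairpin, and separate cultures are not named in the labels: the p-values reflect the spread between these libraries, which may be technical. The DLGAP5 protein sits on the mitotic spindle, where it binds microtubules.

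The centromere is marked by nucleosomes that hold CENP-A in place of ordinary histone H3. A constitutive centromere-associated network (CCAN) sits on these nucleosomes throughout the cell cycle. In mitosis it carries the outer kinetochore, where the Knl1, Mis12 and Ndc80 complexes bind spindle microtubules. Ska proteins and a fibrous corona join at the outer face, and checkpoint proteins gathered there delay anaphase until every chromosome is attached. Many of these genes are transcribed late in the cell cycle, and their promoters often carry a cell cycle genes homology region (CHR), a short element bound by MuvB complexes such as DREAM.

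Values were FPKM, fragments per kilobase of transcript scaled to library size, as deposited by the authors. Depth, estimated from the smallest steps in low values, was 13700000 to 18300000 fragments in the shDLGAP5-1 libraries and 21600000 to 27600000 in the shNC-1 libraries, so low genes carry more error in the shDLGAP5-1 libraries. DLGAP5 stood at 5.03, 4.0001 and 7.51 FPKM in shDLGAP5-1 cells, against 33.0, 32.7 and 29.7 FPKM in shNC-1 cells, with the groups far apart in the direction of the labels (log2 fold change −2.37, limma adjusted p = 0.000894; exact two-sided permutation p = 0.1, the smallest that 3 against 3 libraries allow). Of 7 genes looked at for T24 and epithelial cells, 6 reached 1 FPKM in some library, among them the keratins KRT7, KRT8 and KRT18. VIM, which encodes the mesenchymal filament vimentin, also did, and EPCAM only just, at 1.18 FPKM at most. CDH1, E-cadherin, stayed under 1 FPKM. Of 7 markers of differentiated urothelium, 2 reached 1 FPKM in some library, and KRT20 was listed at 0 in every library. The 2 were PPARG and UPK3A. UPK3A was at 2.28 FPKM in shDLGAP5-1 replicate 3 and listed at 0 in every other library. The library labelled shDLGAP5-1 replicate 3 stood apart in white blood cell transcripts. The summed level of 12 such markers, 7 of which reached 1 FPKM in some library, was 20.0 to 748 FPKM in shDLGAP5-1 libraries and 12.5 to 34.3 FPKM in shNC-1 libraries. In shDLGAP5-1 replicate 3, LYZ alone made up 686 FPKM of the sum. CD74 was higher in every shDLGAP5-1 library, at 10.5, 11.2 and 14.8 FPKM, against 3.00, 2.76 and 2.51 FPKM in shNC-1 libraries. CD3E was listed at 0 throughout. The part of these transcripts in the results was not tested. Results are therefore also given without that library.

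The promoter sequences of the genes show the element that many of them share. RefSeq promoter windows (GRCh38.p14, 250 bases before to 50 after the annotated start) were found for 32 of the 40 genes. In them 6-letter CHR matches (TTTGAA or TTCGAA, either strand) were searched. The stretches shown first are those of the 8 genes that fell in shDLGAP5-1 cells and hold a match. Each is written 5′ to 3′ on the gene's strand, as 10 bases before the match and up to 10 after it, with the match in capitals.
CENPA: gagcgagcgaTTTGAAcgcgagcggc
CENPN: aattggtggcTTTGAAggcgcggcga
NDC80: ggcggagaatTTCAAATTCGAAcggc
ZWINT: cgactgtgacTTCAAAgtaatcttag
SKA1: cggcgggcggTTTGAAttttgcttac
SKA3: ggcgccgagaTTCAAActagtggcgg
CENPF: ctgcgggcagTTTGAAttag
BUB1: gcgcggggtaTTCGAAtcggcggcgg
The stretch of CENPF ends with the window. TTCAAA is TTTGAA read on the opposite strand, and NDC80 holds TTCAAA and TTCGAA side by side. Checkpoint genes that did not pass the test can hold the same letters, as BUB1B and MAD2L1 show.
BUB1B: gaccgttaaaTTTGAAacttggcggc
MAD2L1: cgtcgttactTTTGAAacgcttggcg

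These stretches lie at chr2:26786028-26786053 (CENPA, plus strand), chr16:81007207-81007232 (CENPN, plus), chr18:2571544-2571569 (NDC80, plus) and chr10:56361275-56361300 (ZWINT, minus). Those of the Ska genes lie at chr18:50375070-50375095 (SKA1, plus) and chr13:21176540-21176565 (SKA3, minus). CENPF has chr1:214603225-214603244 (plus), BUB1 chr2:110678047-110678072 (minus), BUB1B chr15:40161036-40161061 (plus) and MAD2L1 chr4:120066809-120066834 (minus). The CCAAT box, the site of the factor NF-Y, often stands upstream of a CHR. It is shown in capitals, together with any CHR match, for 2 genes that fell. The stretches are the 100 bases before the start of CENPF (chr1:214603095-214603194, plus strand) and 106 bases before the start of ZWINT (chr10:56361278-56361383, minus strand).
CENPF: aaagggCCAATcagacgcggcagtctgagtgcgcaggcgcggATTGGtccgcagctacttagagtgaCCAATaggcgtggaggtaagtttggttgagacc
ZWINT: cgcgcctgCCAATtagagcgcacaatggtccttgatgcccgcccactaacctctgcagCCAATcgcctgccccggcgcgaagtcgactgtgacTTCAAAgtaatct
CENPF holds 3 CCAAT boxes and 0 CHR matches in this stretch, and ZWINT 2 CCAAT boxes and 1 CHR. The CHR match of CENPF begins 40 bases after the start, that of SKA1 34 and that of MAD2L1 24.

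Over all 32 promoters, a CHR was found in 17 (53.1%), against 19.5% of 27305 genes in the promoter table. Of the 10 genes that fell and have a promoter in the table, 8 held a CHR, and of the 22 that did not pass the test, 9 did; this difference was not tested. CENPE and CENPI fell and held none in this window. A CCAAT box (CCAAT, either strand) was in 20 of 32 (62.5%), against 39.7% of all genes, and it was in 5 of the 10 that fell and in 15 of the 22 that did not pass. An E2F site, searched as TTTGGCGC, TTTCCCGC, TTTCGCGC or TTTGCCGC on either strand, was in 4 of 32 (12.5%), against 3.99% of all genes. These 4 were CENPA, which fell, and CENPU, OIP5 and MIS12, which did not pass. Within 100 bases before to 50 after the start, a CHR was in 16 of 32, against 9.09% of all genes. The searched letters are short, and a match is not a site shown to be bound.

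**Figure D1:**
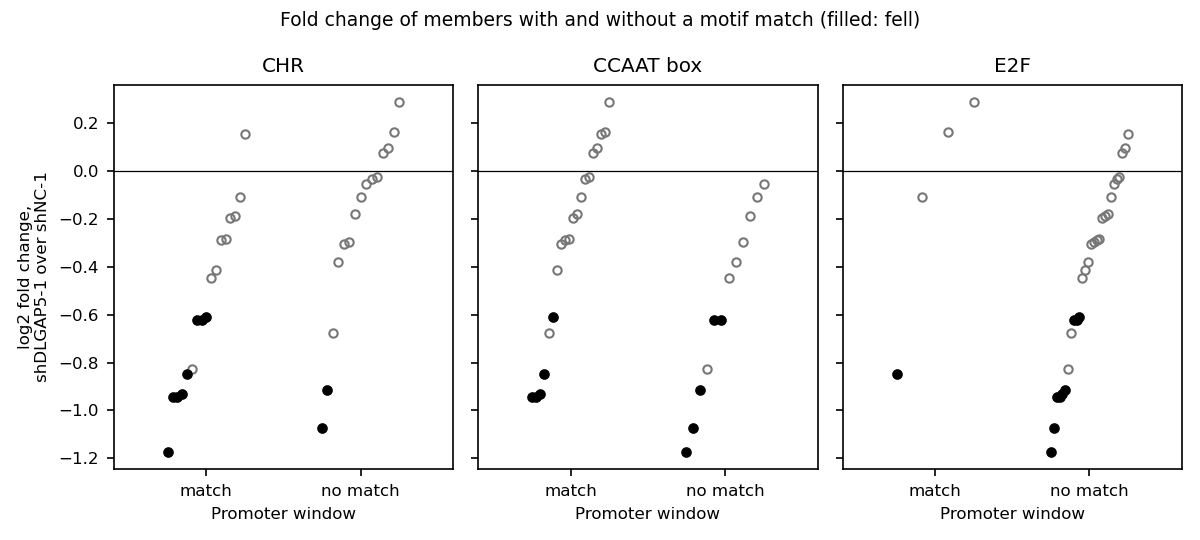
Log2 fold change (vertical axis, FPKM + 1, shDLGAP5-1 over shNC-1) of the 32 genes with a promoter in the table, split by whether the window holds a CHR, a CCAAT box or an E2F match; within a column points are spread sideways in order of value. Filled points passed the test. Of the 10 filled points, 8 lie in the CHR match column.

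Across the whole list, transcripts were lower in shDLGAP5-1 cells or did not differ past the threshold. With limma over all 12714 tested genes, each of the 40 was tested, 12 fell and 0 rose at a Benjamini-Hochberg adjusted p under 0.05, where 24.8% of all tested genes changed. By limma at an unadjusted p under 0.05, 0 members rose as well. Among all tested genes 9.52% fell and 15.3% rose. The median log2 fold change of the 40 was −0.32, against 0.03 over all tested genes, and 33 of 40 estimates were below 0, against 46.7% of all tested genes. The 12 were CENPA, CENPI, CENPN, NDC80, KNL1, ZWINT, SKA1, SKA3, CENPE, CENPF, BUB1 and BUB3, and the difference of their means, shDLGAP5-1 over shNC-1, ran from −56.4% (SKA1) to −31.4% (BUB3). In 21 of 40 genes every shDLGAP5-1 library lay under every shNC-1 library, against 18.3% of all tested genes, and in 0 every shDLGAP5-1 library lay above, against 25.6%. Earlier results of these data were known when the list was chosen, so this direction is not independent support. In bulk libraries fewer cells in mitosis and less transcript per cell cannot be told apart.

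Median deviations of the 40 genes from the shNC-1 mean were −0.25, −0.41 and −0.23 on the log2 scale in shDLGAP5-1 replicates 1 to 3, and 0.03, −0.02 and −0.00 in shNC-1 replicates 1 to 3. All shDLGAP5-1 libraries lay below all shNC-1 libraries. With shDLGAP5-1 replicate 3 (high in white blood cell transcripts) left out, 15 members fell, including the same 12. Of all tested genes 10.7% fell in that fit, against 9.52% as reported. The count was larger where libraries were rescaled, at 19 with median-ratio scaling and 20 with the trend on transcript length removed, and these included the 12 as well. The share of all tested genes that fell was also larger there, at 15.1% with median-ratio scaling and 14.9% with the length trend removed. Median-ratio scaling moved the median of all genes by −0.11. Of all calls 61.6% were higher as reported, 41.8% with median-ratio scaling, 47.8% with same-total scaling, 50.04% with the length trend removed and 50.8% after quantile normalization.

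**Figure D2:**
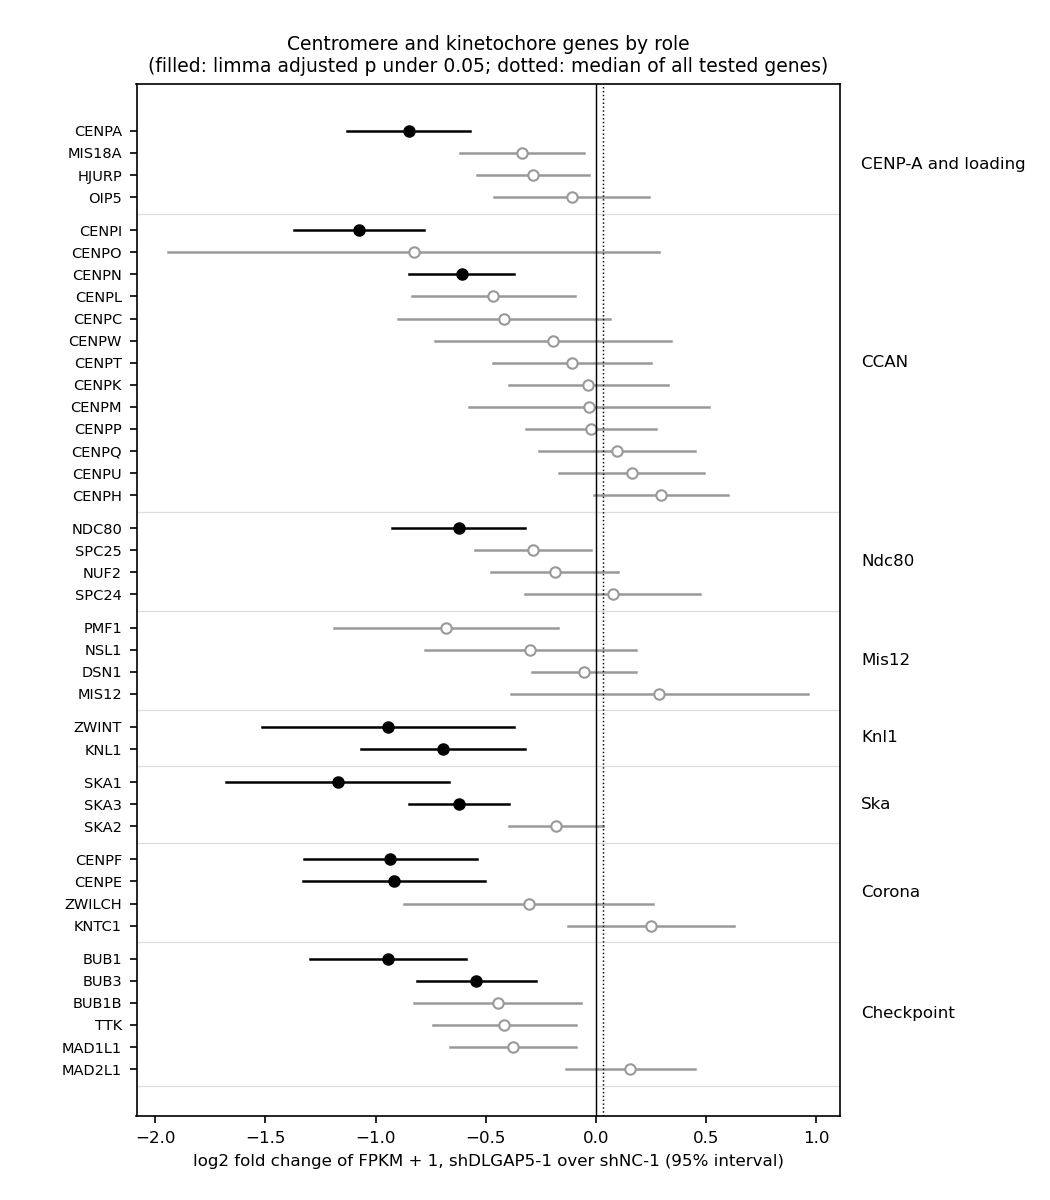
Log2 fold change (horizontal axis) of the 40 genes with 95% intervals, grouped by role; filled points are the 12 that fell and the dotted line is the median of all tested genes, 0.03. The CCAN group holds 13 genes, of which CENPI and CENPN are filled, while both Knl1 genes are.

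**Figure D3:**
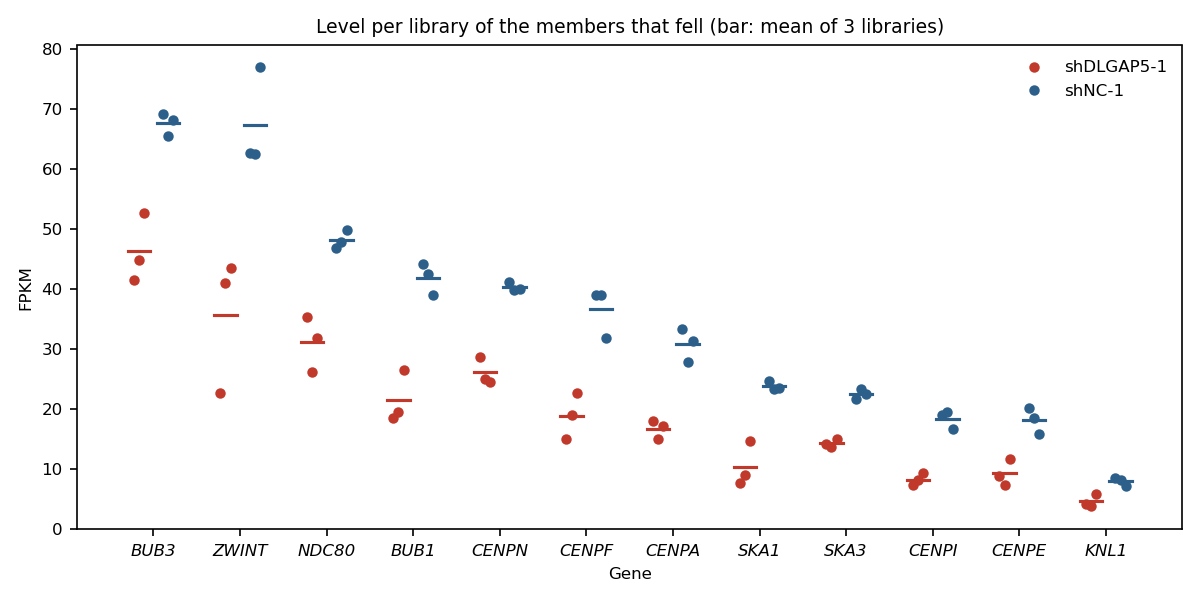
FPKM (vertical axis, from 0) in each library of the 12 genes that fell, with shDLGAP5-1 libraries left of shNC-1 libraries and bars at the mean of 3 libraries. In every gene all shDLGAP5-1 points lie under all shNC-1 points.

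The centromeric histone itself was lower, with its loading factors less far from control. CENPA (ENSG00000115163, GRCh38 chromosome 2, 26764289 to 26801067) stood at 18.0, 14.96 and 17.2 FPKM in shDLGAP5-1 cells, against 33.4, 27.9 and 31.4 FPKM in shNC-1 cells. The groups were far apart, at 16.7 ± 1.58 and 30.9 ± 2.78 FPKM (SD, n = 3 each), and CENPA fell by 0.85 on the log2 scale (standard error 0.12, limma adjusted p = 0.00404). HJURP, the chaperone that deposits CENP-A, was at 27.4, 28.6 and 27.7 FPKM in shDLGAP5-1 cells and at 35.9, 36.7 and 30.4 FPKM in shNC-1 cells. MIS18A, part of the complex that licenses this deposition, was at 23.0, 18.7 and 18.5 FPKM in shDLGAP5-1 cells, against 26.2, 23.9 and 26.4 FPKM in shNC-1 cells. Neither gene's groups overlapped, but both missed the threshold (limma adjusted p = 0.098 for HJURP and 0.0811 for MIS18A). Of 16 alternative fits HJURP passed in 2 and MIS18A in 5, but neither passed without shDLGAP5-1 replicate 3. OIP5, the partner of MIS18A known as MIS18B, was at 9.22, 6.47 and 8.16 FPKM in shDLGAP5-1 cells and 8.63, 7.74 and 9.40 FPKM in shNC-1 cells, with overlapping groups. The 95% interval of the OIP5 ratio was 0.727 to 1.18. In all, 1 of these 4 genes fell (25%, against 9.52% of all tested genes) and 0 rose (against 15.3%). OIP5 shares 470 exon bases with the antisense gene OIP5-AS1, and CENPA shares 138 with SLC35F6 on the same strand; whether counting used strand is not given in the sources used here.

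In the CCAN 2 of 13 genes fell (15.4%, against 9.52% of all tested genes) and 0 rose, and the median log2 fold change was −0.11, against 0.03 over all tested genes. CENPI, a subunit of the group CENP-H, CENP-I, CENP-K and CENP-M, was the largest of them. CENPI (ENSG00000102384, chromosome X, 101098218 to 101163681) stood at 7.30, 8.11 and 9.33 FPKM in shDLGAP5-1 cells, against 19.0, 19.6 and 16.7 FPKM in shNC-1 cells. The means were 8.25 ± 1.03 and 18.4 ± 1.49 FPKM (SD, n = 3 each), and its log2 fold change was −1.08 (limma adjusted p = 0.00229, standard error 0.13), the smallest adjusted p of the 40 genes. None of its 3 partner genes passed the test. CENPH was at 24.5, 19.7 and 21.8 FPKM in shDLGAP5-1 cells and 16.3, 16.8 and 20.1 FPKM in shNC-1 cells, with an estimate above 0 and a limma adjusted p of 0.140. CENPK was at 23.4, 18.1 and 26.2 FPKM in shDLGAP5-1 cells, against 21.7, 25.3 and 21.8 FPKM in shNC-1 cells. CENPM was at 23.5, 13.4 and 12.4 FPKM in shDLGAP5-1 cells and 14.8, 15.9 and 17.8 FPKM in shNC-1 cells, so that shDLGAP5-1 replicate 1 alone lay above the control libraries. The 95% interval of the ratio was 0.761 to 1.25 for CENPK and 0.672 to 1.43 for CENPM.

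CENPN, which reads the CENP-A nucleosome together with CENP-L, fell too. CENPN (ENSG00000166451, chromosome 16, 81006498 to 81033114) stood at 28.7, 25.1 and 24.6 FPKM in shDLGAP5-1 cells, against 41.2, 39.8 and 39.98 FPKM in shNC-1 cells. The control libraries lay close together, and the log2 fold change was −0.61 (limma adjusted p = 0.0073, standard error 0.10). CENPL was at 5.64, 6.48 and 8.58 FPKM in shDLGAP5-1 cells and at 10.6, 9.40 and 9.37 FPKM in shNC-1 cells. Its groups did not overlap, its log2 fold change was −0.47 and it missed the threshold (limma adjusted p = 0.0699). CENPL passed in 4 of 16 alternative fits, among them the one without shDLGAP5-1 replicate 3 (limma adjusted p = 0.0204). CENPN shares 457 exon bases with CMC2, a neighbour on the opposite strand. CMC2 itself averaged 12.5 FPKM in shDLGAP5-1 cells and 24.6 FPKM in shNC-1 cells, so the CENPN value is uncertain to the extent that reads are shared, which was not tested.

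The remaining CCAN genes had overlapping groups. CENPC, which bridges CENP-A nucleosomes to the Mis12 complex, was at 2.58, 2.29 and 4.44 FPKM in shDLGAP5-1 cells, against 4.88, 4.29 and 3.87 FPKM in shNC-1 cells. It fell in the fit without shDLGAP5-1 replicate 3 (log2 fold change −0.64, limma adjusted p = 0.0225) but not as reported (−0.41, adjusted p = 0.181). CENPT and CENPW form a histone-fold pair that also carries Ndc80 complexes. CENPT was at 15.1, 12.6 and 12.3 FPKM in shDLGAP5-1 cells and 15.3, 11.8 and 16.5 FPKM in shNC-1 cells. CENPW was at 45.0, 23.6 and 27.3 FPKM in shDLGAP5-1 cells, against 38.4, 32.2 and 35.6 FPKM in shNC-1 cells, with shDLGAP5-1 replicate 1 above and the other two below the control libraries. Without that replicate CENPW passed the threshold (log2 fold change −0.46, limma adjusted p = 0.0441). CENPW has the shorter transcript of this pair, at 750 bases against 2957 for CENPT.

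The CENP-O group binds the inner network and stabilises attachments, and its members CENP-O, CENP-P, CENP-Q and CENP-U showed no call. CENP-R of the same group, encoded by ITGB3BP, lies outside the 40 genes and is given with the other pathway genes. CENPQ was at 10.1, 7.59 and 11.3 FPKM in shDLGAP5-1 cells and at 9.10, 8.66 and 8.88 FPKM in shNC-1 cells. CENPU was at 25.5, 24.1 and 29.6 FPKM in shDLGAP5-1 cells, against 21.8, 21.2 and 27.6 FPKM in shNC-1 cells. CENPP, at 1.37, 1.26 and 1.78 FPKM in shDLGAP5-1 cells and 1.51, 1.39 and 1.61 FPKM in shNC-1 cells, had the lowest level of the 40 genes. Log2 fold changes were 0.10, 0.16 and −0.02 for CENPQ, CENPU and CENPP, with limma adjusted p of 0.679, 0.427 and 0.911. CENPO varied between libraries within each group, at 6.92, 3.57 and 12.9 FPKM in shDLGAP5-1 cells and 17.6, 18.0 and 6.93 FPKM in shNC-1 cells, and its 95% interval of the ratio, 0.261 to 1.22, was wide. It shares 1488 exon bases with ADCY3 on the opposite strand, and CENPP shares 3719 with IPPK.

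**Figure D4:**
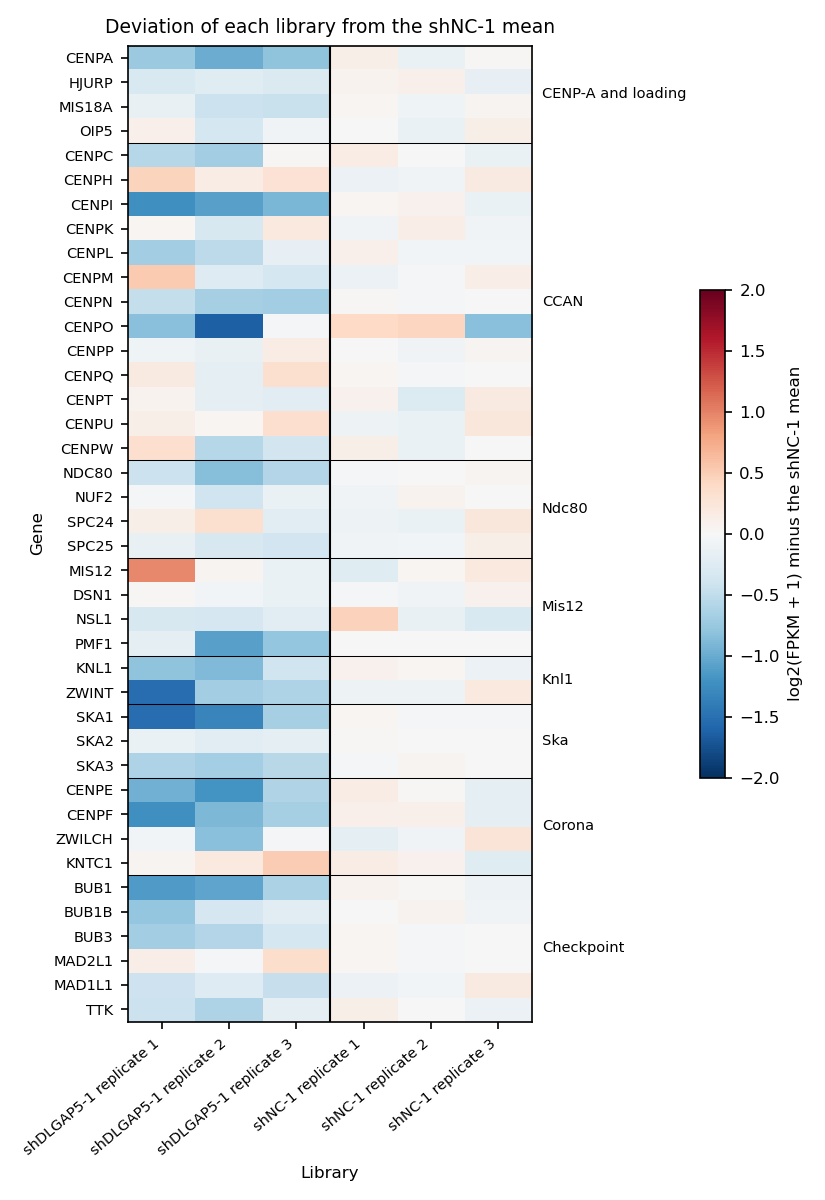
Deviation of log2(FPKM + 1) from the shNC-1 mean (colour) for each gene (rows, by role) in each library (columns, shDLGAP5-1 libraries left of the line). CENPI, SKA1, CENPE, CENPF and BUB1 are blue in all 3 shDLGAP5-1 libraries. In the same libraries several CCAN rows, such as CENPK, CENPM and CENPW, lie on both sides of the shNC-1 mean. The shNC-1 libraries do so in every row, since the mean is theirs.

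In the outer kinetochore, some complexes held both genes that fell and genes that did not pass the test. Differences between members of a complex were not tested. Of the Ndc80 complex, the chief microtubule coupler, 1 of 4 genes fell (25%, against 9.52% of all tested genes). NDC80 (ENSG00000080986, chromosome 18, 2571557 to 2616635) stood at 35.5, 26.3 and 31.9 FPKM in shDLGAP5-1 cells, against 46.9, 47.8 and 49.97 FPKM in shNC-1 cells. Its log2 fold change was −0.62 (limma adjusted p = 0.0146, standard error 0.13), a call lost without shNC-1 replicate 1 (adjusted p = 0.0502) or 2 (0.0585). NUF2, which forms the microtubule-binding head together with NDC80, was at 35.0, 27.1 and 32.6 FPKM in shDLGAP5-1 cells and 34.1, 37.8 and 35.8 FPKM in shNC-1 cells. SPC25 was at 28.5, 24.98 and 23.9 FPKM in shDLGAP5-1 cells, against 30.2, 30.5 and 34.3 FPKM in shNC-1 cells. SPC24, with SPC25 the anchor at the inner end, was at 19.2, 22.1 and 15.1 FPKM in shDLGAP5-1 cells and 16.4, 15.9 and 20.7 FPKM in shNC-1 cells. The limma adjusted p was 0.299 for NUF2, 0.105 for SPC25 and 0.767 for SPC24, and the groups of SPC25 did not overlap. SPC25 passed in 3 of 16 alternative fits. In control cells NDC80 had the highest FPKM of the complex and SPC24 the lowest, at 48.2 ± 1.58 and 17.7 ± 2.65 (SD, n = 3).

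The Mis12 complex is the joint between the inner network and the Ndc80 complex. By limma 0 of its 4 genes passed the threshold, where 24.8% of all tested genes did. At an unadjusted limma p under 0.05 PMF1 was lower. PMF1 was at 17.6, 8.998 and 11.4 FPKM in shDLGAP5-1 cells, against 20.4, 20.0 and 20.1 FPKM in shNC-1 cells (log2 fold change −0.68, limma adjusted p = 0.0593). It passed in 5 of 16 alternative fits. Among them was the fit without shDLGAP5-1 replicate 1 (limma adjusted p = 0.00801), but not that without replicate 3 of this group. Its 3 control libraries were nearly equal, while the shDLGAP5-1 libraries spread over a wide range, and 587 of its exon bases are shared with the read-through gene PMF1-BGLAP. DSN1 was at 27.3, 26.1 and 24.6 FPKM in shDLGAP5-1 cells and at 26.6, 25.6 and 28.8 FPKM in shNC-1 cells, and the 95% interval of its ratio, 0.818 to 1.14, was among the narrower ones. NSL1 was at 3.97, 3.90 and 4.32 FPKM in shDLGAP5-1 cells, against 7.53, 4.61 and 4.02 FPKM in shNC-1 cells, where replicate 1 stood above the other two. MIS12 was at 14.8, 7.40 and 6.40 FPKM in shDLGAP5-1 cells and 5.85, 7.38 and 8.35 FPKM in shNC-1 cells, with shDLGAP5-1 replicate 1 above all others. Adjusted p by limma was 0.732 for DSN1, 0.321 for NSL1 and 0.495 for MIS12.

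Both genes of the Knl1 complex fell, where 9.52% of all tested genes did. KNL1, the scaffold that gathers checkpoint proteins, stood at 4.14, 3.85 and 5.83 FPKM in shDLGAP5-1 cells, against 8.48, 8.23 and 7.24 FPKM in shNC-1 cells (ENSG00000137812, chromosome 15, 40594020 to 40664342; log2 fold change −0.69, limma adjusted p = 0.0209). ZWINT, its partner, was among the most abundant of the 40 in control cells and stood at 22.8, 41.1 and 43.5 FPKM in shDLGAP5-1 cells, against 62.8, 62.6 and 77.0 FPKM in shNC-1 cells (ENSG00000122952, chromosome 10, 56357227 to 56361273). Its shDLGAP5-1 replicate 1 lay well under the other two, and the log2 fold change was −0.94 (limma adjusted p = 0.0306, standard error 0.24). The KNL1 call was lost without shDLGAP5-1 replicate 1 (limma adjusted p = 0.0508) or 2 (0.0644) and without shNC-1 replicate 1 (0.0775) or 2 (0.0780). That of ZWINT was lost without shNC-1 replicate 1 (0.0736), 2 (0.0737) or 3 (0.0923). With no filter on low values, which tests more genes, both calls were lost (limma adjusted p = 0.0606 for KNL1 and 0.101 for ZWINT).

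The Ska complex helps the kinetochore hold on to shortening microtubules. In it 2 of 3 genes fell (66.7%, against 9.52% of all tested genes). SKA1, which binds the microtubule, had the lowest fold change of all 40 genes. SKA1 (ENSG00000154839, chromosome 18, 50375040 to 50394168) stood at 7.61, 8.98 and 14.6 FPKM in shDLGAP5-1 cells, against 24.7, 23.4 and 23.6 FPKM in shNC-1 cells. This was 10.4 ± 3.73 and 23.9 ± 0.709 FPKM (SD, n = 3 each), a log2 fold change of −1.17 (limma adjusted p = 0.00982, standard error 0.21). SKA3 (ENSG00000165480, chromosome 13, 21153595 to 21176552) stood at 14.2, 13.7 and 14.997 FPKM in shDLGAP5-1 cells and at 21.8, 23.3 and 22.5 FPKM in shNC-1 cells, with a narrow spread in both groups (log2 fold change −0.62, limma adjusted p = 0.00586). SKA2 was at 36.4, 34.0 and 34.9 FPKM in shDLGAP5-1 cells, against 40.7, 39.5 and 39.5 FPKM in shNC-1 cells. Its groups did not overlap, but the difference was small (log2 fold change −0.18) and missed the threshold (limma adjusted p = 0.186).

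In the corona 2 of 4 genes fell (50%, against 9.52% of all tested genes), those of its large microtubule-binding proteins. CENPE, the kinesin that carries chromosomes to the spindle equator, stood at 8.83, 7.36 and 11.6 FPKM in shDLGAP5-1 cells, against 20.2, 18.5 and 15.8 FPKM in shNC-1 cells (ENSG00000138778, chromosome 4, 103105806 to 103198409). CENPF, a long coiled-coil protein, stood at 14.97, 19.1 and 22.7 FPKM in shDLGAP5-1 cells, against 39.1, 39.1 and 31.9 FPKM in shNC-1 cells (ENSG00000117724, chromosome 1, 214603195 to 214664571). Log2 fold changes were −0.92 for CENPE (standard error 0.18, limma adjusted p = 0.0115) and −0.93 for CENPF (standard error 0.17, adjusted p = 0.00924). ZWILCH and KNTC1 belong to the RZZ complex, which recruits dynein and the MAD1 and MAD2 proteins. ZWILCH was at 12.0, 6.55 and 12.1 FPKM in shDLGAP5-1 cells and 10.8, 11.8 and 15.1 FPKM in shNC-1 cells. KNTC1 was at 21.1, 23.2 and 29.1 FPKM in shDLGAP5-1 cells, against 22.6, 21.5 and 17.001 FPKM in shNC-1 cells. Neither passed the threshold (limma adjusted p = 0.390 and 0.291), and KNTC1 had an estimate above 0. ZWILCH shares 158 exon bases with RPL4, a ribosomal protein gene that averaged 845 FPKM in shDLGAP5-1 cells and 758 FPKM in shNC-1 cells.

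Of the 6 spindle checkpoint genes 2 fell (33.3%, against 9.52% of all tested genes) and 0 rose (against 15.3%). BUB1, a kinase that binds KNL1 and marks centromeric chromatin, stood at 18.6, 19.5 and 26.6 FPKM in shDLGAP5-1 cells, against 44.2, 42.6 and 39.0 FPKM in shNC-1 cells (ENSG00000169679, chromosome 2, 110637698 to 110678114). Its means were 21.6 ± 4.37 and 41.9 ± 2.66 FPKM (SD, n = 3 each), and its log2 fold change −0.94 (limma adjusted p = 0.00622, standard error 0.15). BUB3, the adaptor that brings BUB1 and BUB1B to KNL1, had the highest control level of the 40 genes. It stood at 41.5, 44.9 and 52.7 FPKM in shDLGAP5-1 cells, against 69.2, 65.6 and 68.2 FPKM in shNC-1 cells (ENSG00000154473, chromosome 10, 123154402 to 123170467), a log2 fold change of −0.54 (limma adjusted p = 0.0164). This call was lost without shDLGAP5-1 replicate 2 (limma adjusted p = 0.0512) and without shNC-1 replicate 1 (0.0656), 2 (0.0614) or 3 (0.0514).

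The other checkpoint genes missed the threshold. BUB1B, whose product BUBR1 inhibits the anaphase-promoting complex, was at 7.21, 10.2 and 11.1 FPKM in shDLGAP5-1 cells, against 13.01, 13.9 and 12.5 FPKM in shNC-1 cells. TTK, the kinase MPS1 that starts the signal, was at 12.1, 10.5 and 14.4 FPKM in shDLGAP5-1 cells and 18.1, 16.6 and 15.4 FPKM in shNC-1 cells. MAD1L1, the platform on which MAD2 is converted, was at 14.0, 15.6 and 13.5 FPKM in shDLGAP5-1 cells, against 17.4, 18.2 and 21.5 FPKM in shNC-1 cells. In these 3 genes the groups did not overlap, with limma adjusted p of 0.0853, 0.0685 and 0.0609, and all 3 passed with median-ratio scaling (0.0302, 0.0233 and 0.0323). Without shDLGAP5-1 replicate 3 TTK passed (limma adjusted p = 0.0329), while BUB1B and MAD1L1 did not. MAD2L1, which encodes the MAD2 protein that inhibits CDC20, was at 16.01, 14.3 and 18.9 FPKM in shDLGAP5-1 cells and 15.02, 14.2 and 14.3 FPKM in shNC-1 cells. Its groups overlapped, and the 95% interval of the ratio was 0.911 to 1.37.

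Ratios of members within a library do not depend on scaling between libraries. The pairs were picked after the values were seen, many as a gene that fell over one that did not pass, so that groups lying apart is largely fixed by the choice and the ratios are only a description. NDC80 over NUF2 was 1.01, 0.970 and 0.976 in shDLGAP5-1 libraries, against 1.37, 1.27 and 1.40 in shNC-1 libraries. SKA1 over SKA2 was 0.209, 0.264 and 0.420 in shDLGAP5-1 libraries and 0.607, 0.592 and 0.596 in shNC-1 libraries. CENPI over CENPH was 0.298, 0.411 and 0.428 in shDLGAP5-1 libraries, against 1.16, 1.16 and 0.831 in shNC-1 libraries. In each of these pairs the groups lay apart. CENPA over its chaperone HJURP was 0.657, 0.522 and 0.620 in shDLGAP5-1 libraries, against 0.931, 0.760 and 1.034 in shNC-1 libraries. BUB1 over MAD2L1 was 1.16, 1.37 and 1.41 in shDLGAP5-1 libraries and 2.95, 3.00 and 2.72 in shNC-1 libraries. Other pairs overlapped, such as NUF2 over SPC25, at 1.22, 1.08 and 1.37 in shDLGAP5-1 libraries and 1.13, 1.24 and 1.04 in shNC-1 libraries.

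**Figure D5:**
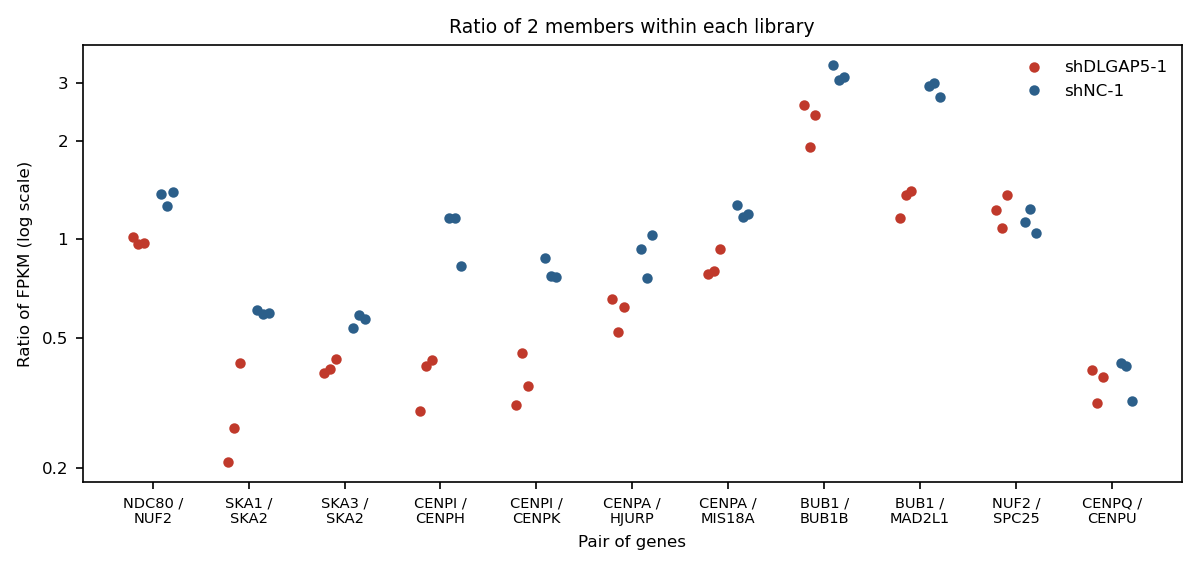
Ratio of the FPKM of 2 genes within each library (vertical log axis) for 11 pairs picked after the values were seen, shDLGAP5-1 left of shNC-1. The 9 pairs on the left do not overlap between groups; NUF2 over SPC25 and CENPQ over CENPU do.

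Other genes of the pathway, 30 in a list outside the 40, gave 9 falls (30.0%, against 9.52% of all tested genes) and 1 rise (3.33%, against 15.3%), with a median log2 fold change of −0.41, against 0.03. The checkpoint target CDC20, the mitotic kinase PLK1 and TRIP13, an ATPase that recycles MAD2, had the smallest p. CDC20 stood at 56.1, 59.8 and 53.6 FPKM in shDLGAP5-1 cells, against 123, 127 and 134 FPKM in shNC-1 cells. TRIP13 stood at 19.9, 19.3 and 20.3 FPKM in shDLGAP5-1 cells and at 35.8, 39.7 and 37.7 FPKM in shNC-1 cells. Log2 fold changes were −1.17 for CDC20, −1.27 for PLK1 and −0.89 for TRIP13 (limma adjusted p = 0.000912, 0.00133 and 0.00152). ZW10, the third member of the RZZ complex, fell by 0.66 on the log2 scale (limma adjusted p = 0.0107), while ZWILCH and KNTC1 did not pass. KIF2C, a kinesin that takes microtubule ends apart, fell by 0.50 and CHAMP1, a zinc finger protein of the kinetochore, by 0.51 (limma adjusted p = 0.0122 and 0.017). ITGB3BP, which encodes CENP-R of the CENP-O group, was the gene that rose, at 40.5, 27.9 and 33.9 FPKM in shDLGAP5-1 cells, against 21.9, 17.1 and 25.3 FPKM in shNC-1 cells (log2 fold change 0.65, limma adjusted p = 0.042). That call was lost under each scaling that changes all genes except quantile normalization, with limma adjusted p of 0.0587 for the same total and 0.0872 for median ratio. It was also lost without shDLGAP5-1 replicate 1 (0.0952) or 3 (0.0792) and without shNC-1 replicate 1 (0.101) or 2 (0.133). With no filter on low values the ITGB3BP call was lost too (limma adjusted p = 0.116). The ZW10 call was lost without shNC-1 replicate 2 (0.0538), as was that of KIF2C (0.0515). With the replicate block KIF2C (limma adjusted p = 0.0613) and CHAMP1 (0.0735) lost their calls. CHAMP1 also lost its call without shDLGAP5-1 replicate 2 (0.0536) or shNC-1 replicate 1 (0.0616), 2 (0.0735) or 3 (0.0554).

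Counts in neighbouring lists are given for scale. Among 27 mitosis genes outside the 40, such as cyclins, Aurora kinases and cytokinesis factors, 21 fell (77.8%). Their median log2 fold change was −0.73. Of the 40 genes described here 12 fell (30.0%), with a median of −0.32. The 27 include AURKB, INCENP, BIRC5 and CDCA8 of the chromosomal passenger complex, which sits at the inner centromere, and each of these fell. The 2 lists therefore do not separate centromere genes from other mitosis genes. Among 36 replication genes 3 fell (8.33%) and 3 rose (8.33%), with a median of −0.10; both shares were under those of all tested genes, of which 9.52% fell and 15.3% rose. The lists were not tested against each other.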

How the data were processed

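Per the labels' protocols, total RNA was taken up with a commercial kit and turned into mRNA libraries from T24 cells with shDLGAP5-1 or shNC-1 hairpins, 3 libraries each. The authors deposited 1 table of FPKM for 58825 genes. The unit was read from the values (not whole, totals of 413001 to 487559 per library, steps inverse to gene length), since the header names none; the sources used here do not give the aligner, quantifier, annotation or strand setting. Columns with NC in their names are shNC-1, and the others were given to shDLGAP5-1, the one other group. FPKM depend on length and on the library total, so a few abundant or short transcripts shift other genes.

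The planned count test could not be used on FPKM. A gene entered the fit if 3 or more libraries reached 1 FPKM (12714 genes). The test was limma 3.58.1 (R 4.3.3) on log2(FPKM + 1) with a variance trend and Benjamini-Hochberg adjustment over all of them and 0.05 as the threshold; fold changes on this scale understate changes of low genes. The script was tested on simulated data. Gene lengths and shared exons came from GENCODE release 29; 87.1% of matched identifiers have the same GRCh38 coordinates there. Motifs were searched in RefSeq promoter windows of GRCh38.p14. Members, lists and roles were chosen with earlier results of these data known. Every member is named; of 30 other pathway genes, the 6 with the smallest p and those that rose. Alternatives were a pseudocount of 0.1, no filter or 5 FPKM, other scalings, a lowess length trend (span 0.3) removed, a replicate block, a robust prior and each library left out.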

Additional observations from a re-analysis of the deposited data

How the results depend on the processing

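Of the 12 members that fell, 8 (CENPA, CENPI, CENPN, SKA1, SKA3, CENPE, CENPF and BUB1) passed in all 16 alternatives. NDC80, KNL1, ZWINT and BUB3 lost the call in some, and 10 other members passed in at least 1. How many of all tested genes kept or gained a call in this way was not counted, so these numbers only describe the members. The member count, all lower, was 19 with median-ratio scaling, 20 with the length trend removed and 8 to 15 without 1 library. In any fit 0 members rose. The share of all tested genes that fell was 15.1% and 14.9% in the first 2 of these and 3.71% to 10.7% without 1 library. The member median was −0.42 with same-total scaling and −0.43 with median-ratio scaling, of which a shift of all genes made up −0.10 and −0.11. Without 1 library it ran from −0.28 to −0.38. The 3155 calls over all genes numbered 2071 with no filter, 1464 with the replicate block and 1335 to 3141 without 1 library, where fits hold fewer samples. The 10 pathway calls numbered 6 with no filter, 5 with the block and 3 to 11 without 1 library. With the replicate block 9 members fell, as did 4.03% of all tested genes. NDC80 (limma adjusted p = 0.0509), KNL1 (0.0686) and BUB3 (0.0626) did not pass there. Deviations of same-numbered libraries correlated at −0.16, 0.02 and −0.16, and those of differently numbered ones at −0.07 to 0.19. These values show no pairing by number. They cannot settle whether same-numbered libraries were prepared together, which the titles do not state. Within 100 bases before to 50 after the start, 1 of 32 members held an E2F match (3.1%), against 2.07% of all genes. A count-based fit was not run, since the table holds no counts. Depth, lower in shDLGAP5-1 libraries, limits low genes such as CENPP.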

Other observations

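CENPO and MIS12, singled out after their values were seen, had the widest spread within a group relative to its mean of all 40 members. CENPO had 12.9 FPKM in shDLGAP5-1 replicate 3, above 6.92 and 3.57 FPKM in the others of that group, and 6.93 FPKM in shNC-1 replicate 3, under 17.6 and 18.0 FPKM in the others of that group. MIS12 had 14.8 FPKM in shDLGAP5-1 replicate 1, against 7.40 and 6.40 FPKM in the others of that group. OIP5-AS1, antisense to OIP5, averaged 9.25 FPKM in shDLGAP5-1 cells and 5.24 FPKM in shNC-1 cells.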
